A study of Mus musculus with 12 samples.

Results

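The comparison described here is day 10 against day 3 in the fetal bovine serum (FBS) arm of a study of mouse embryonic stem (ES) cells. It rests on 4 of the 12 arrays of the series: 1 array at each day from the Stella-GFP line and 1 from the Dazl-GFP line, each measured on single-colour Agilent arrays. These are independent ES cell lines that carry a GFP construct named after the germ cell genes Dppa3 (also called Stella) and Dazl. Day 10 and day 3 cells of this arm were both grown with leukemia inhibitory factor (LIF) in DMEM with 15% FBS on γ-irradiated mouse embryonic fibroblasts, as were the day 0 cells of the same arm (2 arrays), which serve below as the starting level. The serum-free arm, called the 2i condition in the labels, was grown in B27N2 medium with LIF on the same kind of feeder cells and has 2 arrays at each of days 0, 3 and 10. For the 2i experiments the labels give 1 µM of the MEK inhibitor PD0325901 and 5 µM of the GSK3β inhibitor Kenpaullone, and they say neither whether the FBS arm received them after day 0 nor what the serum-free day 0 cells received. Each group is 1 array from each of the 2 lines. The p-values therefore measure the scatter of all 12 arrays once a constant difference between the lines is removed. The spread between cultures of 1 line was not measured. The comparison asks what came back to its starting level by day 10, what stayed changed after day 3, and what began after day 3.

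ES cells held with LIF and inhibitors of MEK and GSK3 take up the naive state, in which genes such as Klf2, Tbx3 and Esrrb are active and genes of the primed, post-implantation state such as Fgf5 and Dnmt3b are low. LIF acts through STAT3, which drives its own feedback inhibitor Socs3. The integrated stress response is a separate programme in which shortage of amino acids, or another stress, raises the transcription factor Atf4; its targets take up and make amino acids and include the secreted hormones Fgf21 and Gdf15. Irradiated fibroblasts express matrix, contractile and chemokine genes, and cultures made from embryos can hold blood cells such as macrophages, so RNA of a culture on feeders is not from ES cells alone.

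Signals are given here relative to each array, with 100 at that array's 75th percentile, so a value can be compared between arrays for the same gene but not between genes. The summed signals of lists below are weighted to their brightest probes. Such sums are compared between arrays for the same list only. The day 10 arrays were brighter than the day 3 arrays in both lines: the 75th percentile lay at 718 in Stella-GFP and 878 in Dazl-GFP cells at day 10, against 454 and 562 intensity units at day 3. The share of spots well above background was 68.6% and 73.3% at day 10, against 64.0% and 70.2% at day 3. The FBS day 0 arrays were bright too, at 825 in Stella-GFP and 947 in Dazl-GFP cells. Of their spots 70.7% and 74.4% were well above background. Brightness therefore moved with the days compared and was lowest at day 3 in both lines. Its part in the results was not tested. For each line, the day 10 and day 3 arrays shared a slide (slide 2 for Stella-GFP, slide 1 for Dazl-GFP), so each line's own change was measured within a slide. All 12 ES cell markers lay well above background on all 4 arrays, among them Pou5f1, with a signal of 2632 in Stella-GFP and 3633 in Dazl-GFP cells at day 10, against 1850.2 and 3897 at day 3.

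Of 20777 genes tested, 304 (1.46%) passed an adjusted p of 0.05 between day 10 and day 3, in a limma model that took the cell line as a block and the spread from all 12 arrays. At day 10, 197 genes (0.948%) were higher and 107 (0.515%) lower, and 266 of the 304 differed by at least 2-fold. Each of the 304 changed in 1 direction in Stella-GFP and Dazl-GFP cells alike, which a fit over both lines favours. Of all genes, 77.9% had the same sign in the lines, 30.5% positive and 47.4% negative in both. The median change over all genes was -0.11 on the log2 scale, so single values are to be read against that shift. The calls lie close to the threshold, with a lowest adjusted p of 0.0194 and a median of 0.0435 among those called. No gene passed when any 1 of the 4 compared arrays was left out (2988 to 3898 genes then had an unadjusted p under 0.05), nor when any 1 of the serum-free day 0 or day 3 arrays was left out (4669 to 4696 unadjusted), and 2 passed without either serum-free day 10 array. Leaving out either FBS day 0 array gave 925. Without the cell line as a block 6 genes passed, with the slide as a further block 157, and with normexp background correction 4355 did, 805 higher and 3550 lower. For that reason the values of the single arrays are given beside many of the genes named. The others carry a fitted change, a group mean or a bound only.

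**Figure D1:**
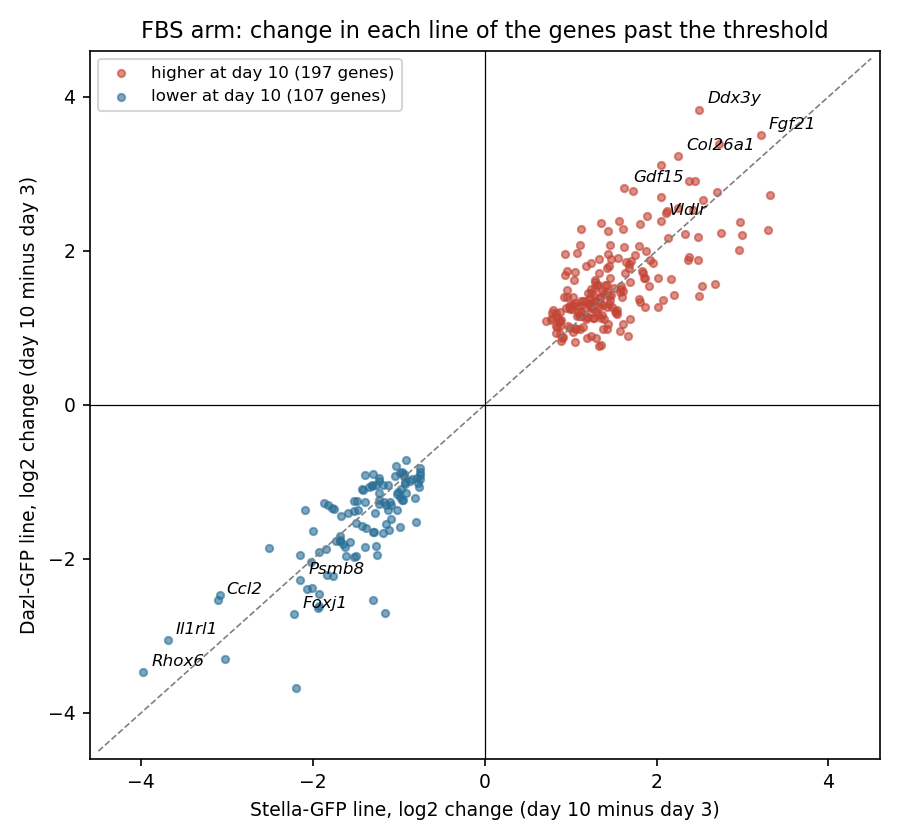
Log2 change from day 3 to day 10 in the FBS arm, Stella-GFP line on the horizontal and Dazl-GFP line on the vertical axis, for the 304 genes past an adjusted p of 0.05; each point is 1 gene, red for the 197 higher and blue for the 107 lower at day 10, and the dashed line marks equal change. All points lie in the upper right or the lower left of the plot, with Fgf21 at 3.21 and 3.50 and Rhox6 at -3.98 and -3.47.

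The highest change among the genes that passed and have a gene name belonged to Fgf21, a secreted metabolic hormone that the integrated stress response induces. Its signal was 16.6 in Stella-GFP and 50.9 in Dazl-GFP cells at day 10, against 1.79 and 4.5 at day 3, and both day 10 values lay above both day 3 values (10.2-fold, log2 change 3.36 ± 0.58, adjusted p = 0.0471, limma). Its probe was well above background on 1 of the 2 day 3 arrays, Dazl-GFP, so the size is less certain than the direction. Gdf15, a stress-induced hormone of the TGF-β family, had signals of 377 in Stella-GFP and 897 in Dazl-GFP cells at day 10, against 122 and 128 at day 3 (4.65-fold, log2 change 2.22 ± 0.31, adjusted p = 0.0391). Vldlr, a lipoprotein receptor that this response also induces, had signals of 206 in Stella-GFP and 319 in Dazl-GFP cells at day 10, against 49.8 and 61.0 at day 3 (4.65-fold, log2 change 2.22 ± 0.34, adjusted p = 0.0426). In these genes the groups did not overlap, and in each the Dazl-GFP line had the higher level at day 10. The share of all genes without such overlap is not given. Separation of the arrays of the days, here and below, is therefore a description only.

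The list of integrated stress response regulators had 16 members tested, of which these 3 rose and none fell, against 0.948% and 0.515% of all genes. The median log2 change of the list was 0.73, 12 members had a positive change in both lines (30.5% of all genes), and 1, Ppp1r15a, had a negative change in both (-0.57, adjusted p = 0.0947). Chac1, which breaks down glutathione, did not pass, with signals of 1616 in Stella-GFP and 2813 in Dazl-GFP cells at day 10, against 399 and 714 at day 3 (log2 change 2.00 ± 0.42, adjusted p = 0.0634). Nupr1, a stress-induced nuclear protein, did not pass either, at 1407 in Stella-GFP and 2927 in Dazl-GFP cells at day 10, against 412 and 626 at day 3 (log2 change 2.00 ± 0.40, adjusted p = 0.0604). Both genes had every day 10 value above every day 3 value, which is a description only. The transcription factors themselves showed smaller differences: Atf3, Atf4 and Ddit3 had log2 changes of 1.25 (adjusted p = 0.0819), 0.50 (adjusted p = 0.187) and 0.28 (adjusted p = 0.69). The summed signal of the list was 16519 in Stella-GFP and 24894 in Dazl-GFP cells at day 10, against 10366 and 12139.7 at day 3. The lists were chosen with earlier results of these data known. Comparisons of a list with all genes, here and below, are therefore descriptions only.

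Promoters of these genes are shown because several of them hold the letters of the element through which Atf4 is known to act with C/EBP proteins, written TGATGNAA and searched on both strands. Of 32851 RefSeq promoter windows of the GRCm38.p6 build, each 250 bases before to 50 after a start site, 1304 (3.97%) held it. All 16 stress response genes tested matched an entry, and 6 of their 19 windows held the motif, among them Fgf21 and Vldlr but not Gdf15. Of the 14 windows of the 9 amino acid transporters with an entry, 2 held it, those of Slc1a4 and Slc7a11. A match is a description of the letters only. The windows of 3 genes that passed the test follow, for Vldlr the one of its 2 entries that holds the match, 5′ to 3′ on the gene's strand, with the motif in capitals.
Fgf21 (chr7:45615441-45615740, minus strand): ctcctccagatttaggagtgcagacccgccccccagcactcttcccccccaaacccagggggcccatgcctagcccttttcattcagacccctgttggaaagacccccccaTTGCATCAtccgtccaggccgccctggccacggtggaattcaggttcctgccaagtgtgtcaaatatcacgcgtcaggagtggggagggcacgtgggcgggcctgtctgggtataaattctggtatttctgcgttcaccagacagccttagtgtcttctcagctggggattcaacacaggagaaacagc
Vldlr (chr19:27216770-27217069, plus strand): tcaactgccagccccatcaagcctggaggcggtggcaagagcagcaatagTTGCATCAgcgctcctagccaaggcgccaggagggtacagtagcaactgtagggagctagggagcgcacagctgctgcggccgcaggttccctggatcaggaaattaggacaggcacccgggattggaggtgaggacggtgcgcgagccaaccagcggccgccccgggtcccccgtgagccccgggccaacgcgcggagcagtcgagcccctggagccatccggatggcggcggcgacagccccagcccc
Slc1a4 (chr11:20332664-20332963, minus strand): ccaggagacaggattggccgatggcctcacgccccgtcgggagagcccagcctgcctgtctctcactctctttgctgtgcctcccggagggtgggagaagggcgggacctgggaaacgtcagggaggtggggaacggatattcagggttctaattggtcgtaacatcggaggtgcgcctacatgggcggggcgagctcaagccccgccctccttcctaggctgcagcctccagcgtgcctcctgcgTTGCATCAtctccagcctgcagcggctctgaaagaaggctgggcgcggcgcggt
In each of them the match lay on the strand opposite to the gene, and its first printed letter stood 139 bases before the start site in Fgf21, 200 in Vldlr and 4 in Slc1a4.

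Slc7a1, Slc1a4 and Slc1a5 rose among the amino acid transporters. Of 13 tested, these 3 rose and none fell, against 0.948% and 0.515% of all genes. Those shares apply to the list counts between day 10 and day 3 below as well. The median log2 change was 0.74, and 11 had a positive change in both lines (30.5% of all genes). Slc7a1, the carrier of arginine and lysine, had signals of 318 in Stella-GFP and 456 in Dazl-GFP cells at day 10, against 102 and 138 at day 3 (3.19-fold, log2 change 1.68 ± 0.21, adjusted p = 0.033), although its other probe had a change of 0.056. Slc1a4, a carrier of small neutral amino acids, had signals of 114 in Stella-GFP and 163 in Dazl-GFP cells at day 10, against 45.8 and 55.2 at day 3 (2.72-fold, log2 change 1.44 ± 0.19, adjusted p = 0.0391). Slc1a5, the glutamine carrier, reached 1755 in Stella-GFP and 2221 in Dazl-GFP cells at day 10, against 866 and 941 at day 3 (2.19-fold, log2 change 1.13 ± 0.19, adjusted p = 0.0468). No day 3 value of these genes reached a day 10 value. Slc7a11, the cystine and glutamate exchanger, was well above background on both day 10 arrays and on neither day 3 array, with signals of 3.25 in Stella-GFP and 12.3 in Dazl-GFP cells at day 10, against 1.37 and 1.70 at day 3; that is at least 2.93-fold higher, at an adjusted p of 0.085 that does not pass.

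Enzymes that make serine, asparagine, proline and folate-bound carbon units showed the same sign with none past the threshold. Of 13 tested, 0 rose and 0 fell at an adjusted p of 0.05 by limma, 11 had a positive change in both lines, and the median was 0.77. At an unadjusted p of 0.05, 10 were higher and 2 lower, against 2288 and 2834 of all 20777 genes. The highest values were those of Aldh1l2 (1.46, adjusted p = 0.0578), Pycr1 (1.21, adjusted p = 0.088) and Mthfd2 (1.16, adjusted p = 0.0814). Among 19 aminoacyl-tRNA synthetases and the tRNA exporter Xpot 0 passed by limma, 5 were higher and 0 lower at an unadjusted p of 0.05, the median was 0.25, and Nars was highest at 1.11 (adjusted p = 0.0656). The endoplasmic reticulum chaperones, which answer to misfolded protein, had a median of -0.15, and 0 of 14 passed by limma (2 higher and 0 lower unadjusted). Of the chaperones 3 of 14 had a positive change in both lines, near the 30.5% of all genes.

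Lipid, glucose and oxygen genes contributed single members. Scd2, a fatty acid desaturase, had signals of 7939 in Stella-GFP and 6811 in Dazl-GFP cells at day 10, against 3480.2 and 3719 at day 3 (log2 change 1.03 ± 0.17, adjusted p = 0.0438). Elovl6, a fatty acid elongase, had signals of 1393 in Stella-GFP and 1309.8 in Dazl-GFP cells at day 10, against 714 and 646 at day 3 (log2 change 0.99 ± 0.15, adjusted p = 0.0416). They are the 2 of 12 fatty acid genes that rose, and none fell, against 0.948% and 0.515% of all genes. The median of that list was 0.33. Of 23 sterol genes, 0 passed by limma (5 higher and 1 lower at an unadjusted p of 0.05, median 0.21). Pfkp, the platelet form of phosphofructokinase, had signals of 1255 in Stella-GFP and 1640.1 in Dazl-GFP cells at day 10, against 465 and 342 at day 3 (3.60-fold, log2 change 1.85 ± 0.29, adjusted p = 0.0435) and was the only 1 of 14 glycolysis genes to pass. Vegfa, the vascular growth factor and a target of both hypoxia and Atf4, had signals of 256 in Stella-GFP and 367 in Dazl-GFP cells at day 10, against 94.7 and 94.0 at day 3 (3.25-fold, log2 change 1.70 ± 0.27, adjusted p = 0.0435) and was the only 1 of 13 hypoxia genes to pass. The median change was 0.11 for glycolysis and -0.011 for hypoxia, against -0.11 over all genes.

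**Figure D2:**
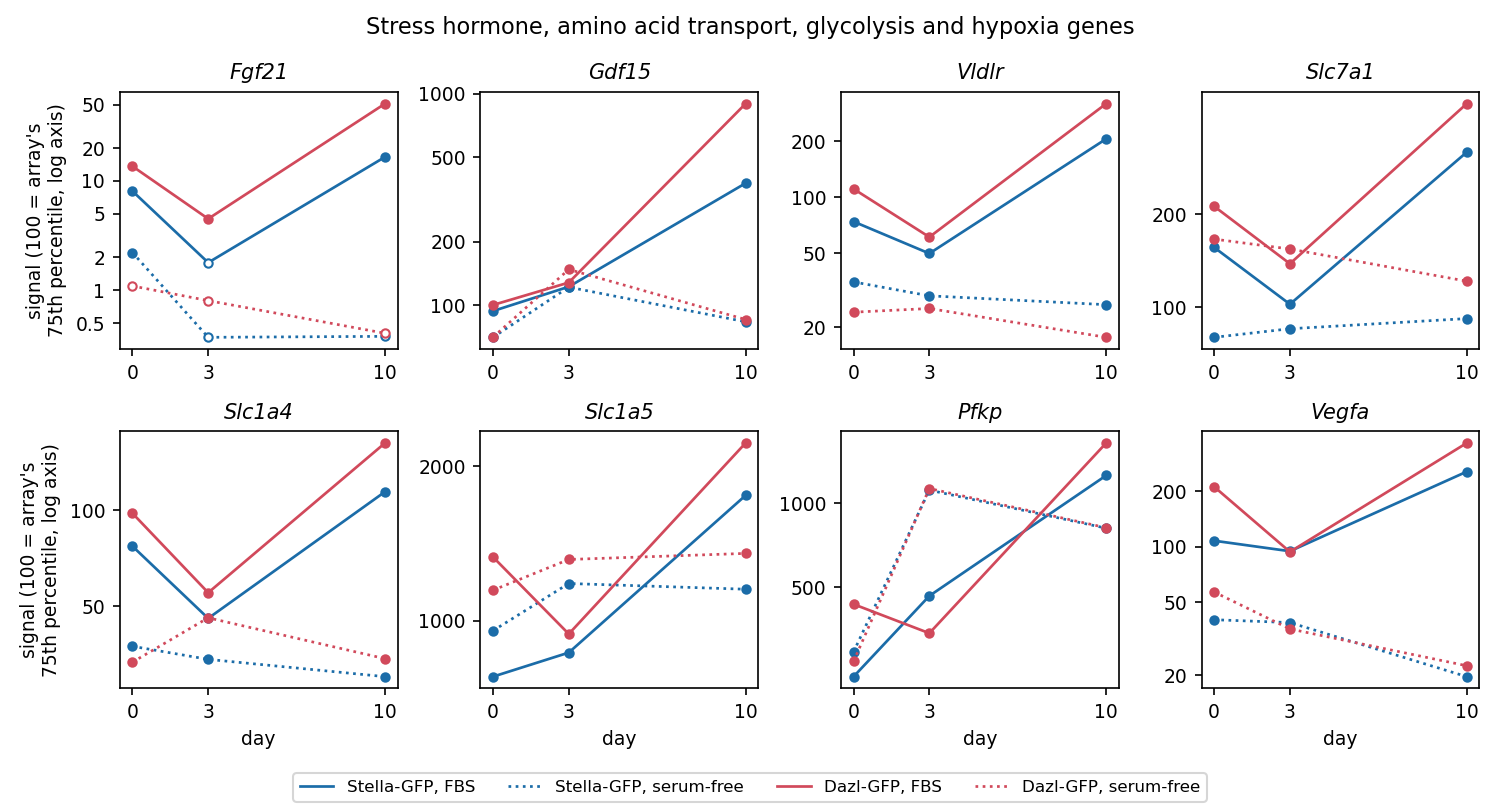
Signal by day (0, 3 and 10) of 8 genes that rose between day 3 and day 10 in the FBS arm, relative to each array's 75th percentile (100) on a log axis; solid lines are FBS and dotted lines serum-free cells, blue Stella-GFP and red Dazl-GFP, and an open point was not well above background. Both FBS lines climb after day 3 in every panel, and Vegfa reaches 256 and 367 at day 10.

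Ddx3y, Rec114, Terb2 and Taf7l were among the 15 highest changes. Ddx3y, a Y-linked RNA helicase, had signals of 40.4 in Stella-GFP and 14.5 in Dazl-GFP cells at day 10, against 7.18 and 1.01 at day 3 (8.96-fold, log2 change 3.16 ± 0.50, adjusted p = 0.0435), with 1 of the 2 day 3 arrays, Stella-GFP, well above background. Rec114, needed for the DNA breaks that start meiotic recombination, had signals of 331 in Stella-GFP and 479 in Dazl-GFP cells at day 10, against 61.7 and 82.7 at day 3 (5.58-fold, log2 change 2.48 ± 0.33, adjusted p = 0.0391). Terb2, part of the complex that ties meiotic telomeres to the nuclear envelope, was not well above background at day 3; its mean signal was 5.64 at day 10, against 0.931 at day 3, at least 2.61-fold higher (adjusted p = 0.0317). Such a bound sets the day 10 mean against the lowest signal that counted as well above background on each day 3 array. Taf7l, a germ cell form of a general transcription factor subunit, had a mean of 7.62 at day 10, against 1.57 at day 3, where it was not well above background, at least 3.53-fold higher (adjusted p = 0.0416). Piwil1, an Argonaute protein of the piRNA pathway, was likewise measured at day 10 only, at 3.01 in Stella-GFP and 2.76 in Dazl-GFP cells at day 10, against 0.584 and 0.747 at day 3 (at least 1.33-fold higher, adjusted p = 0.033); with normexp background correction its fitted change turned to -0.19.

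Over the list of 15 meiosis and oocyte genes, Taf7l rose and none fell, and the median was 0.79, or 0.025 with normexp background correction. Dazl, the RNA-binding germ cell protein after which 1 of the lines is named, had signals of 54.5 in Stella-GFP and 912 in Dazl-GFP cells at day 10, against 16.4 and 113 at day 3 (log2 change 2.37 ± 0.62, adjusted p = 0.0851). Every day 10 value of Dazl exceeded the day 3 value of its own line, but the Stella-GFP value at day 10 lay under the Dazl-GFP value at day 3, and the gene did not pass. Tdrd9, a piRNA helicase, was well above background on both day 10 and on neither day 3 array, at 3.31 in Stella-GFP and 4.20 in Dazl-GFP cells at day 10, against 0.870 and 1.16 at day 3 (at least 1.73-fold higher, adjusted p = 0.0983, which does not pass).

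Rhox6, Nanos3 and Khdc3, also known from germ cells or oocytes, fell. Rhox6, an X-linked homeobox gene of germ cells and placenta, had signals of 141 in Stella-GFP and 224 in Dazl-GFP cells at day 10, against 2225 and 2491 at day 3, 13.3-fold lower at day 10 (log2 change -3.73 ± 0.68, adjusted p = 0.0494). Its neighbour in the same cluster, Rhox9, had signals of 305 in Stella-GFP and 567 in Dazl-GFP cells at day 10, against 3656 and 4715 at day 3 and did not pass (log2 change -3.32 ± 0.72, adjusted p = 0.0654). Nanos3, an RNA-binding protein that primordial germ cells need, had signals of 16.0 in Stella-GFP and 6.03 in Dazl-GFP cells at day 10, against 65.0 and 24.7 at day 3 (4.08-fold lower, log2 change -2.03 ± 0.30, adjusted p = 0.0416). The lines differed in level, but no day 10 value reached a day 3 value. Khdc3, an oocyte protein also found in ES cells, had signals of 259 in Stella-GFP and 70.5 in Dazl-GFP cells at day 10, against 581 and 459 at day 3 (3.82-fold lower, log2 change -1.93 ± 0.35, adjusted p = 0.0494). Dppa3, which protects maternal DNA methylation in the egg, had signals of 517 in Stella-GFP and 1162 in Dazl-GFP cells at day 10, against 3106 and 3185 at day 3; neither day 10 value reached a day 3 value, and the gene did not pass (log2 change -2.02 ± 0.55, adjusted p = 0.0894). Of 21 germ cell and piRNA genes, 0 rose and 2 fell, against 0.948% and 0.515% of all genes, and the median change was -0.14. Piwil1, which rose, is not in that list.

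The other genes among the 15 highest were of mixed kind. Col26a1, a minor collagen, had signals of 68.4 in Stella-GFP and 136 in Dazl-GFP cells at day 10, against 14.4 and 14.4 at day 3 (6.68-fold, log2 change 2.74 ± 0.44, adjusted p = 0.0438). Dmrtc1c1, a gene of the Dmrt family, had signals of 69.1 in Stella-GFP and 64.8 in Dazl-GFP cells at day 10, against 12.7 and 8.61 at day 3 (6.40-fold, log2 change 2.68 ± 0.32, adjusted p = 0.033). St6galnac3, a sialyltransferase, had signals of 45.0 in Stella-GFP and 105 in Dazl-GFP cells at day 10, against 10.4 and 18.3 at day 3 (4.99-fold, log2 change 2.32 ± 0.32, adjusted p = 0.0391). In these 3 genes the day 10 and day 3 values did not overlap. Smok4a, of the sperm motility kinases, which have close copies whose signal a probe may share, had signals of 8.77 in Stella-GFP and 21.9 in Dazl-GFP cells at day 10, against 2.03 and 3.90 at day 3 (log2 change 2.30 ± 0.36, adjusted p = 0.0435). Hpvc2 was not well above background at day 3, with means of 4.75 at day 10, against 1.04 at day 3, at least 2.20-fold higher (adjusted p = 0.0488), and its fitted change turned to -0.026 with normexp background correction. For Spag16, Trpm1 and Tmc7 the probes of the gene disagreed: Spag16, of the sperm tail, had a change of 2.74 at the probe that stood for it and of -0.24 at the other. Trpm1, a cation channel, had 2.67 and -0.40, and the 3 probes of Tmc7 covered -0.24 to 2.60. Plagl1, an imprinted zinc finger gene, had signals of 617 in Stella-GFP and 110.3 in Dazl-GFP cells at day 10, against 242 and 21.4 at day 3 (log2 change 1.86 ± 0.32, adjusted p = 0.0472), with 0.19 at its other probe. Its days overlapped across the lines, since the Dazl-GFP level was lower, and it was the only 1 of 19 imprinted genes to pass.

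Jun, Junb and Fosb led the immediate early genes, which growth factors and handling switch on within minutes, and fell. Of 16 tested, 3 fell, against 0.515% of all genes, and none rose. The median was -0.97, and 11 of the 16 had a negative change in both lines. Of all genes 47.4% had one, which applies to the counts of negative members below as well. Jun, a subunit of AP-1, had signals of 77.7 in Stella-GFP and 43.9 in Dazl-GFP cells at day 10, against 238 and 171 at day 3 (3.46-fold lower, log2 change -1.79 ± 0.25, adjusted p = 0.0391). Junb, a second AP-1 subunit, had signals of 1052 in Stella-GFP and 1042 in Dazl-GFP cells at day 10, against 2819 and 2242 at day 3 (2.40-fold lower, log2 change -1.26 ± 0.19, adjusted p = 0.0416). Fosb, their partner, had signals of 19.08 in Stella-GFP and 26.3 in Dazl-GFP cells at day 10, against 65.4 and 66.7 at day 3 (2.95-fold lower, log2 change -1.56 ± 0.25, adjusted p = 0.0435). Each day 3 value exceeded each day 10 value in these genes. Egr2 had the lowest change of the list and did not pass (log2 change -2.19 ± 0.46, adjusted p = 0.0634), while Atf3 and Egr3 had positive values (1.25 and 1.16).

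Socs3 and Junb fell among the targets of LIF and STAT3. Of 13 tested, these 2 fell and none rose, against 0.515% and 0.948% of all genes. The median was -0.72, and 11 had a negative change in both lines. Socs3, the feedback inhibitor of the LIF receptor, had signals of 1102 in Stella-GFP and 1107 in Dazl-GFP cells at day 10, against 2225 and 2438 at day 3 (2.11-fold lower, log2 change -1.08 ± 0.15, adjusted p = 0.0391). The lines agreed closely at each day. Cish, another inhibitor of the same family, missed the threshold at -0.99 (adjusted p = 0.0519), and the receptor subunits Lifr and Osmr had log2 changes of -1.0 (adjusted p = 0.0654) and -1.25 (adjusted p = 0.094). Klf4, a STAT3 target of the naive network, had -0.10 (adjusted p = 0.849).

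The interferon and chemokine lists each held 2 genes that fell. Psmb8, the inducible catalytic subunit of the immunoproteasome, had signals of 3.82 in Stella-GFP and 1.91 in Dazl-GFP cells at day 10, against 17.0 and 9.29 at day 3 (4.64-fold lower, log2 change -2.22 ± 0.24, adjusted p = 0.0294). Its day 10 signals were low, so the size of this fall is less certain than the direction. Gbp2, an interferon-induced GTPase, had signals of 3.70 in Stella-GFP and 3.93 in Dazl-GFP cells at day 10, against 9.1 and 7.35 at day 3 (2.14-fold lower, log2 change -1.10 ± 0.19, adjusted p = 0.0484). They were the 2 of 23 interferon response genes that fell, and none rose, against 0.515% and 0.948% of all genes. The median was -0.78, and 18 had a negative change in both lines. Gbp3, Ifit3 and Isg15 had log2 changes of -2.82 (adjusted p = 0.0838), -2.37 (adjusted p = 0.0709) and -1.88 (adjusted p = 0.0827). Of the 22 windows of the 19 members with a promoter entry, 12 held the interferon-stimulated element, searched on either strand as GAAA repeated after any 2 letters, against 1131 (3.44%) of the 32851 windows; Gbp2 held it and Psmb8 did not. The window of Gbp2 is shown with the match in capitals, 59 bases before the start site.
Gbp2 (chr3:142620413-142620712, plus strand): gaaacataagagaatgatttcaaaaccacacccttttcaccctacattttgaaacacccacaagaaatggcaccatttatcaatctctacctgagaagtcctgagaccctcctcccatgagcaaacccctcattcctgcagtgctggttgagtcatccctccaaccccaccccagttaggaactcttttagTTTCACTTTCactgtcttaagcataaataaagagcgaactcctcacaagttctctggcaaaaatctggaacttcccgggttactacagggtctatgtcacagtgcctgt

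Among 18 chemokines and cytokines, 2 fell and none rose, against 0.515% and 0.948% of all genes, and the median was -0.93. Ccl2, which attracts monocytes, had signals of 43.8 in Stella-GFP and 23.6 in Dazl-GFP cells at day 10, against 378 and 137 at day 3 (7.08-fold lower, log2 change -2.82 ± 0.43, adjusted p = 0.0419). Cxcl5, which attracts neutrophils, had signals of 2.42 in Stella-GFP and 1.5 in Dazl-GFP cells at day 10, against 9.76 and 7.81 at day 3 (4.57-fold lower, log2 change -2.19 ± 0.31, adjusted p = 0.0391). Day 10 and day 3 did not overlap in either gene. The day 10 signals of Cxcl5 were low, so the size of its fall is less certain than the direction. No member had a positive change in both lines, and Cxcl1 and Ccl3, with -2.32 and -1.96, did not pass.

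**Figure D3:**
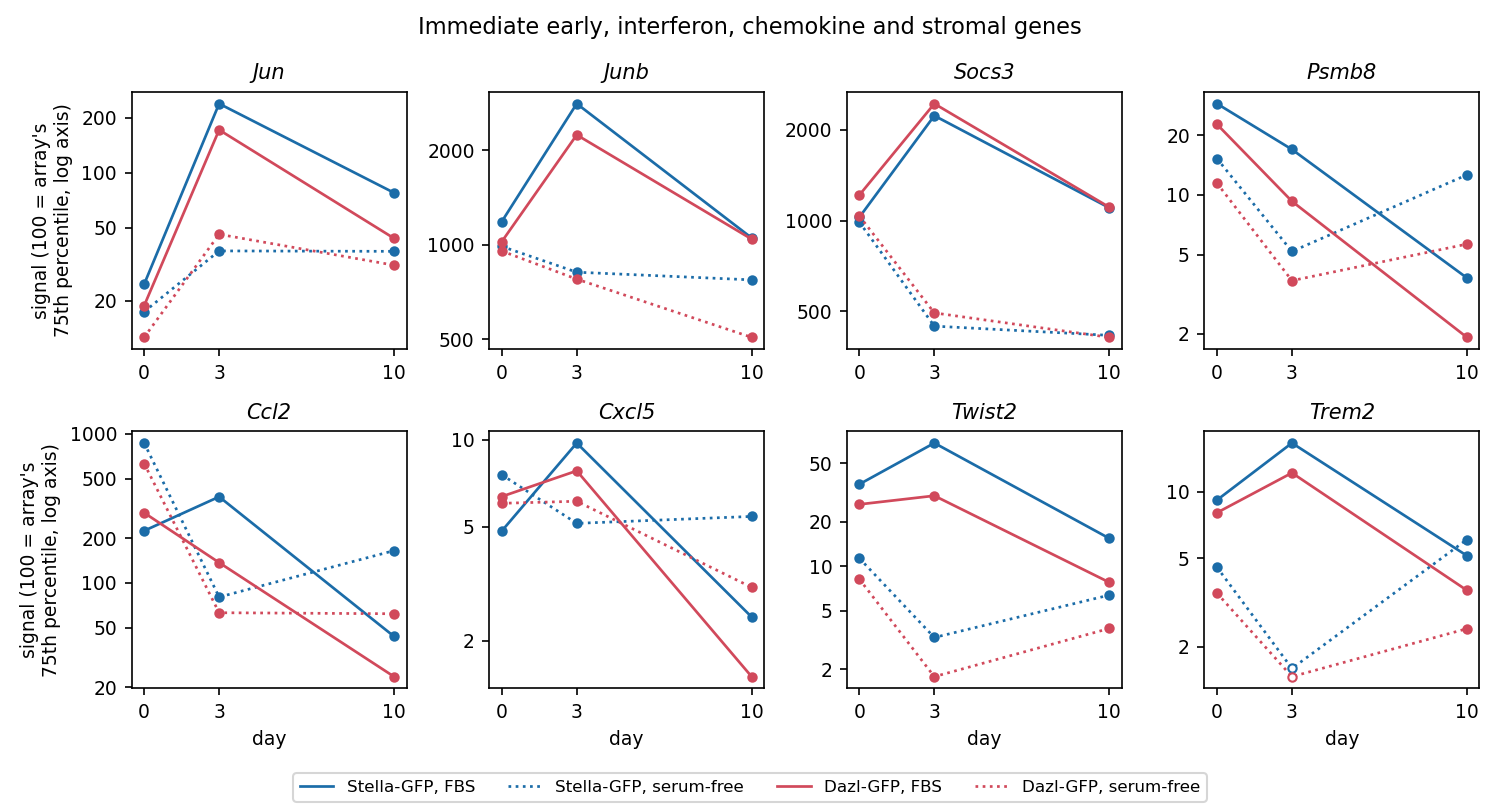
Signal by day of 8 genes that fell between day 3 and day 10 in the FBS arm, drawn as in the plot of genes that rose (solid FBS, dotted serum-free, blue Stella-GFP, red Dazl-GFP, log axis with 100 at the array's 75th percentile). Both solid lines drop after day 3 in every panel; Socs3 ends at 1102 and 1107, near its day 0 signals of 1025 and 1214.

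Each list of fibroblast, matrix, contractile, macrophage and mast cell markers held 1 gene that fell, matrix proteases apart. Twist2, a transcription factor of mesenchyme, had signals of 15.5 in Stella-GFP and 7.78 in Dazl-GFP cells at day 10, against 68.5 and 30.1 at day 3 (4.14-fold lower, log2 change -2.05 ± 0.22, adjusted p = 0.0294). It was the 1 of 19 fibroblast identity genes to fall; none rose, 15 had a negative change in both lines, and the median was -0.67. The summed signal of that list was 5456 in Stella-GFP and 3272 in Dazl-GFP cells at day 10, against 8448 and 5082 at day 3, with 18 of the 19 well above background on each of these arrays. Of 14 collagens, Col18a1, of basement membranes, fell with signals of 2173 in Stella-GFP and 1629 in Dazl-GFP cells at day 10, against 4295 and 3737 at day 3 (log2 change -1.09 ± 0.16, adjusted p = 0.0416), and the median was -0.97. Of 17 contractile genes and targets of SRF and YAP, Ankrd1 fell (log2 change -0.94 ± 0.16, adjusted p = 0.0484), the median was -0.80, and 16 had a negative change in both lines. Matrix proteases and their inhibitors had no member past the threshold and a median of -0.52, although their lowest change, -4.58, was the lowest of all genes tested.

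Macrophage markers had the lowest median of all lists, -1.29, with 20 of 23 negative in both lines, where 47.4% of all genes were. Trem2, a receptor of macrophages and microglia, was the member that fell, with signals of 5.14 in Stella-GFP and 3.59 in Dazl-GFP cells at day 10, against 16.5 and 12.1 at day 3 (3.30-fold lower, log2 change -1.72 ± 0.29, adjusted p = 0.046). The summed macrophage signal was 342 in Stella-GFP and 384 in Dazl-GFP cells at day 10, against 1170.1 and 734 at day 3, so both day 10 sums lay under both of day 3. Of its 23 members, 19 in Stella-GFP and 22 in Dazl-GFP cells were well above background at day 10, against 20 and 21 at day 3. Of 7 mast cell markers Il1rl1, the receptor of interleukin 33, fell, with signals of 6.73 in Stella-GFP and 4.93 in Dazl-GFP cells at day 10, against 87.0 and 40.9 at day 3 (10.4-fold lower, log2 change -3.37 ± 0.30, adjusted p = 0.0294). The other mast cell markers ranged from -1.91 for Gata2 to 0.81 for Kit, a gene of ES cells too, and the median was -0.61. The mast cell sum was 373 in Stella-GFP and 616 in Dazl-GFP cells at day 10, against 539 and 482 at day 3, lower in Stella-GFP and higher in Dazl-GFP cells. Of the 7 members 5 had a negative change in both lines and 1 a positive one. In these bulk samples fewer cells of a type and less RNA per cell cannot be told apart. The interferon, chemokine, immediate early and LIF lists had negative medians together with the fibroblast and macrophage lists, and the part of feeder and blood cells in their change was not tested.

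**Figure D4:**
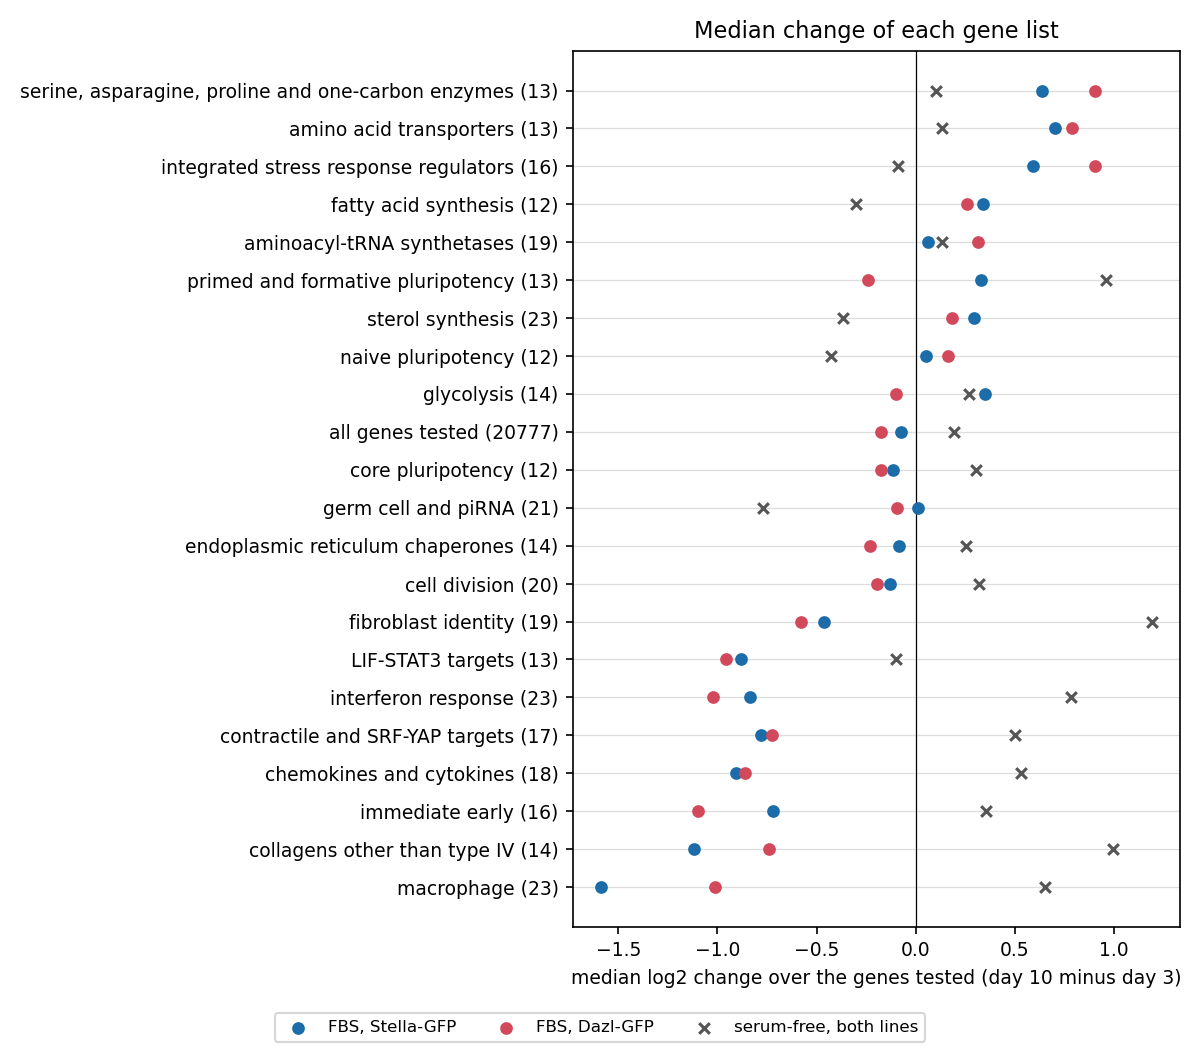
Median log2 change (day 10 minus day 3) over the tested members of 21 gene lists and over all genes, with the number of genes in brackets; blue points stand for Stella-GFP and red for Dazl-GFP cells in FBS, and crosses the serum-free arm fitted over both lines. In Stella-GFP cells the macrophage list lies lowest at -1.59 and in Dazl-GFP cells the immediate early list at -1.10; of the lists drawn, those for amino acids and stress lie highest in FBS.

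The remaining genes among the 15 lowest had these values. Foxj1, the regulator of motile cilia, had signals of 5.11 in Stella-GFP and 8.50 in Dazl-GFP cells at day 10, against 23.8 and 56.0 at day 3 (5.54-fold lower, log2 change -2.47 ± 0.27, adjusted p = 0.0294). Nkx6-2, a homeobox gene of the nervous system, had signals of 370.5 in Stella-GFP and 277 in Dazl-GFP cells at day 10, against 1258 and 1294 at day 3 (log2 change -1.99 ± 0.33, adjusted p = 0.0441). Arl4c, a small GTPase, had signals of 208 in Stella-GFP and 69.1 in Dazl-GFP cells at day 10, against 511 and 402 at day 3 (log2 change -1.92 ± 0.31, adjusted p = 0.0435). None of these overlapped between the days. Lgals9 (galectin-9), Lypd6b and Il17rb, a receptor of interleukin 17 family members, changed by -2.02 (adjusted p = 0.0317), -2.29 (adjusted p = 0.0419) and -1.92 (adjusted p = 0.0391) on the log2 scale. Orm3, an acute phase protein gene with close relatives, was well above background on both day 3 arrays and on neither day 10 array, with signals of 0.415 in Stella-GFP and 0.300 in Dazl-GFP cells at day 10, against 3.37 and 2.95 at day 3, at least 2.05-fold lower at day 10 (adjusted p = 0.0194).

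No pluripotency gene passed between the days. Of 12 core genes and 12 naive genes 0 passed by limma, with medians of -0.13 and 0.16. At an unadjusted p of 0.05 the core list had 2 higher and 5 lower members, and the naive list 0 and 2. Nanog had signals of 1226 in Stella-GFP and 1708 in Dazl-GFP cells at day 10, against 956 and 948 at day 3, higher at day 10 in both lines without passing (log2 change 0.60 ± 0.18, adjusted p = 0.111). Esrrb, Tbx3 and Klf2 had log2 changes of 0.52 (adjusted p = 0.277), 0.94 (adjusted p = 0.212) and -0.21 (adjusted p = 0.691). Against day 0, 7 of the naive genes were already higher at day 3 and 6 of the 13 primed genes lower, where 6.78% and 5.3% of all genes were. Of 13 primed genes none passed: Fgf5 had -1.39 and Otx2 1.31, and the median was 0.23. No member passed among the lists for the cell cycle, p53 targets, antioxidant response, Nodal, Wnt, BMP, MEK-ERK, retinoid and aryl hydrocarbon receptor targets, 2-cell stage, primitive endoderm, mesendoderm, neuroectoderm, trophoblast and endothelium, where medians ran from -0.95 in mesendoderm to 0.54 in the 2-cell list. The 2-cell list also held the highest change of all genes tested, 3.38, which did not pass.

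The dioxygenases that start DNA demethylation, which the series title names, did not pass. Tet2 had signals of 228 in Stella-GFP and 301 in Dazl-GFP cells at day 10, against 139 and 168 at day 3 (log2 change 0.78 ± 0.17, adjusted p = 0.0656) and Tet1 of 97.6 in Stella-GFP and 125 in Dazl-GFP cells at day 10, against 133 and 127 at day 3 (log2 change -0.23 ± 0.24, adjusted p = 0.568). Tet2 was higher at day 10 in both lines without overlap. The values of Tet3 differed in direction between the lines, with signals of 10.5 in Stella-GFP and 10.9 in Dazl-GFP cells at day 10, against 15.2 and 6.17 at day 3 (log2 change 0.15 ± 0.42, adjusted p = 0.846). None of the 16 genes of DNA methylation and demethylation passed; the median was -0.25. Dnmt3b and Dnmt3l, of de novo methylation, had log2 changes of -0.28 (adjusted p = 0.644) and -1.02 (adjusted p = 0.352).

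With day 0 as the starting level the genes were sorted into those that returned, persisted or started late. Against day 0, 1409 genes (6.78%) were higher and 1102 (5.3%) lower at day 3, and 1562 (7.52%) were higher and 1123 (5.41%) lower at day 10. These descriptions rest on 3 contrasts that share arrays, and the Stella-GFP day 0 array lay on another slide than that line's later arrays. A gene returned if it passed at day 3 against day 0 and at day 10 against day 3 in opposite directions and ended within 2-fold of day 0 in both lines. By that rule 106 genes (0.51%) returned, 41 after being higher and 65 after being lower at day 3. With normexp background correction that split turned to 2290 and 238, and it was 197 and 175 with a variance trend. Array brightness in this arm also fell at day 3 and rose again by day 10 in both lines, and its part in these counts was not tested. A gene persisted if it passed at day 3 and at day 10 against day 0 and stayed within 2-fold between those days, which held for 1083 genes (5.21%), 648 higher and 435 lower. Another 113 (0.544%) started late, passing at day 10 against both earlier days with day 3 within 2-fold of day 0, 82 of them higher and 31 lower. That split was 303 and 362 with normexp, 97 and 16 in the authors' table and 188 and 168 with a variance trend. The remaining 85 of the 304 genes called between day 10 and day 3 met none of the rules. The counts of returned and late genes fell to 0 without any 1 of the 4 arrays of days 10 and 3 or of the serum-free day 0 and day 3 arrays, and to 1 without either serum-free day 10 array. Without the Stella-GFP or the Dazl-GFP day 0 array of the FBS arm they were 211 and 176 returned and 191 and 274 late. Persisting genes numbered 577 and 431 without the Stella-GFP or Dazl-GFP array of day 10, 221 and 336 without that of day 3, and 714 without the Stella-GFP array of day 0. Without the cell line as a block 2 genes returned, 679 persisted and 3 started late.

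Among genes that returned after being higher at day 3, Rbm47, an RNA-binding protein, had signals at days 0, 3 and 10 of 23.4, 102 and 25.5 in Stella-GFP cells and 24.5, 65.8 and 21.1 in Dazl-GFP cells. Nanos3 had 27.2, 65.0 and 16.0 in Stella-GFP cells and 5.87, 24.7 and 6.03 in Dazl-GFP cells. Il17rb had 1.98, 10.8 and 2.84 in Stella-GFP cells and 1.39, 6.85 and 1.82 in Dazl-GFP cells. Its low values at days 0 and 10 leave the size of its steps less certain. In each of these genes the day 3 value stood above both others in its line, as the rule requires. Orm3, Lgals3bp, a secreted glycoprotein, and Dnaaf1, a factor for assembling ciliary dynein, had the same course, as did Fosb, Junb and Socs3 of the lists above. Among those that returned after being lower, Lrrn1, a leucine-rich repeat protein of neurons, had 15.2, 3.33 and 19.2 in Stella-GFP cells and 12.6, 2.69 and 7.84 in Dazl-GFP cells at days 0, 3 and 10. Slc1a4 had 77.2, 45.8 and 114 in Stella-GFP cells and 98.0, 55.2 and 163 in Dazl-GFP cells. Its day 10 values lay above day 0 in both lines, within the 2-fold that the rule allows. Terb2 had 3.96, 0.617 and 4.90 in Stella-GFP cells and 3.81, 1.40 and 6.48 in Dazl-GFP cells, also higher at day 10 than at day 0. Neither day 3 value was well above background, and with normexp its day 3 minus day 0 change turned to 0.21. Dock4, a guanine nucleotide exchange factor, had probes that disagreed, from -1.25 to 1.59 between day 10 and day 3. Slc9a7 was well above background on both day 0 arrays and on no later one, and Pde5a on 1 array each of days 0 and 10, so their courses are bounds only. With normexp the day 10 minus day 3 and day 3 minus day 0 changes turned to -0.27 and 0.33 for Slc9a7, to -0.22 and 0.24 for Pde5a and to -0.19 and 0.30 for Piwil1, which was in the same class. None of these keeps that class there.

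By their rule, the genes that persisted were within 2-fold of their day 10 level at day 3. Spic, an Ets family transcription factor, had signals of 24.8, 377 and 476 in Stella-GFP cells and 3.71, 351 and 690.2 in Dazl-GFP cells at days 0, 3 and 10. Serpinb1a, a protease inhibitor, had 8.65, 85.5 and 97.6 in Stella-GFP cells and 12.5, 90.2 and 144 in Dazl-GFP cells, and Tlx1, a homeobox gene, had 1.79, 16.1 and 13.5 in Stella-GFP cells and 1.45, 13.9 and 22.1 in Dazl-GFP cells. Pla2g4e, Gad2 and Ffar2 were not well above background at day 0 and at day 10 were at least 8.02-fold, 8.69-fold and 3.80-fold higher than that. Downwards, Gbx2, a homeobox gene downstream of LIF, had 487, 55.1 and 42.1 in Stella-GFP cells and 346, 46.4 and 23.2 in Dazl-GFP cells. Car4, a carbonic anhydrase, had 49.2, 5.24 and 4.07 in Stella-GFP cells and 56.9, 5.69 and 3.21 in Dazl-GFP cells, and Wt1, a zinc finger gene of kidney and gonad, had 108, 1.87 and 2.70 in Stella-GFP cells and 34.9, 2.90 and 2.09 in Dazl-GFP cells. In each of these genes the day 3 and day 10 values lay within 2-fold in both lines, as the rule requires. Tnfsf11, the ligand RANKL, was well above background at day 0 only and at day 10 at least 14.5-fold lower, and Figla, of the oocyte, at least 3.18-fold lower; Zfp608 had a log2 change of -4.02 from day 0 to day 10. Of the lists, 5 of 12 naive genes, 4 of 13 primed genes, 6 of 21 germ cell genes and 6 of 19 imprinted genes persisted, against 5.21% of all genes. So did 3 of 12 core pluripotency, 3 of 10 Nodal, 3 of 12 MEK-ERK and 4 of 16 DNA methylation genes. Macrophage, cell cycle and stress response lists had none. These counts do not separate directions: at day 3 against day 0, 6 germ cell genes were higher and 7 lower.

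By their rule, the genes that started late had day 3 within 2-fold of day 0. Col26a1 had signals of 25.6, 14.4 and 68.4 in Stella-GFP cells and 18.5, 14.4 and 136 in Dazl-GFP cells at days 0, 3 and 10, and Gdf15 had 93.8, 122 and 377 in Stella-GFP cells and 100.2, 128 and 897 in Dazl-GFP cells. Sox6, a transcription factor of cartilage and red cells, had 1.55, 1.13 and 4.96 in Stella-GFP cells and 1.49, 2.24 and 10.1 in Dazl-GFP cells. Its day 3 values lie near the lowest signals counted as well above background, so the size of its step is less certain. In each the step lay between day 3 and day 10, as the rule requires. Vldlr, St6galnac3 and Smok4a followed the same rule, as did Slc7a1, Slc1a5, Pfkp, Scd2 and Elovl6 of the lists above. Downwards, Il1rl1 had 118, 87.0 and 6.73 in Stella-GFP cells and 56.1, 40.9 and 4.93 in Dazl-GFP cells, Foxj1 13.5, 23.8 and 5.11 in Stella-GFP cells and 41.7, 56.0 and 8.50 in Dazl-GFP cells and Twist2 36.0, 68.5 and 15.5 in Stella-GFP cells and 26.3, 30.1 and 7.78 in Dazl-GFP cells. Lypd6b, Ifi207 and Fbxw16 were the other late genes that the rule named. Ifi207, of the interferon-inducible p200 family, was well above background on 1 day 3 array and no day 10 array (at least 1.71-fold lower), and Fbxw16 on no array of either day.

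**Figure D5:**
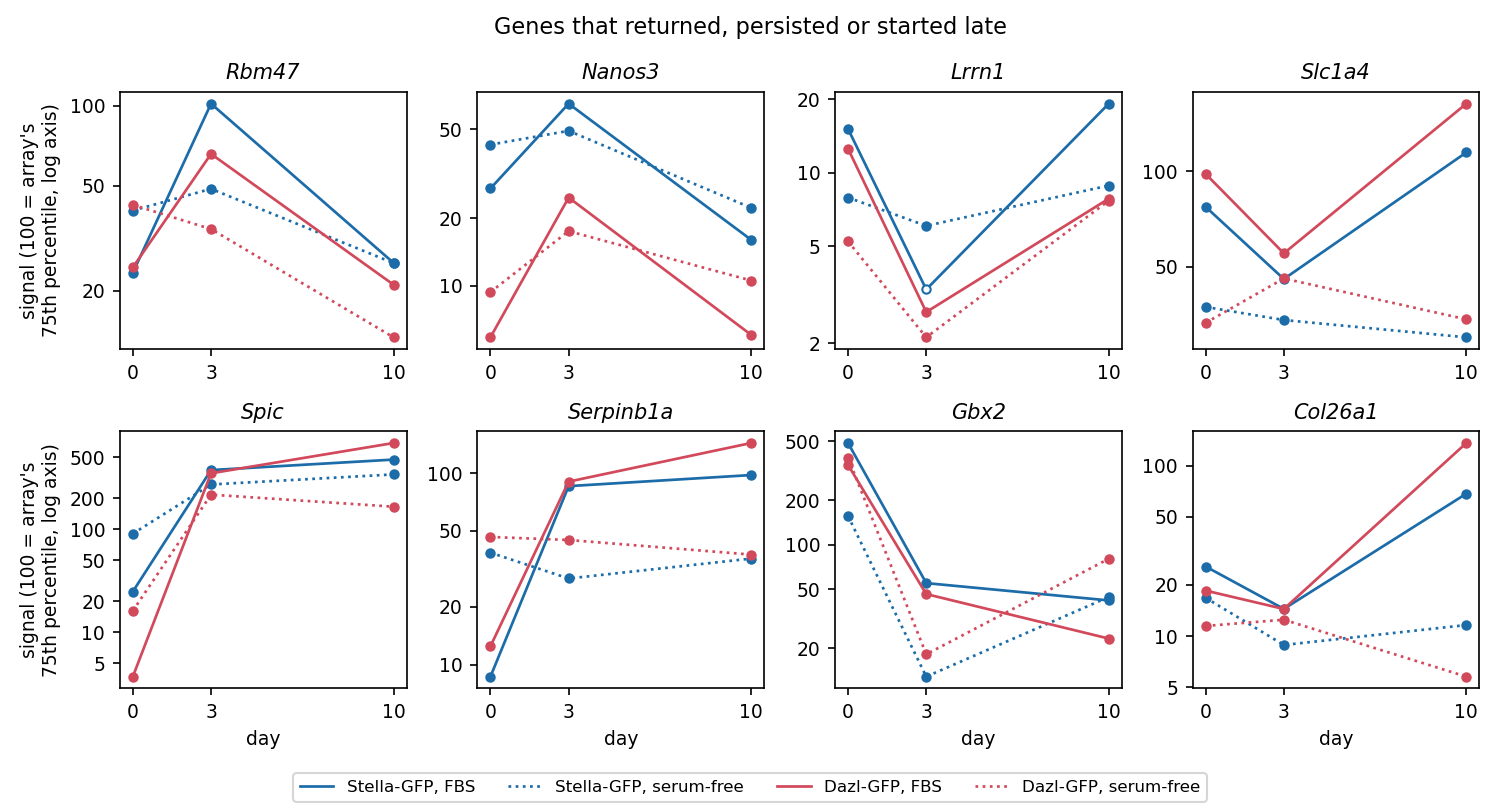
Signal by day of 8 genes: Rbm47 and Nanos3 returned after being higher at day 3, Lrrn1 and Slc1a4 returned after being lower, Spic and Serpinb1a persisted higher, Gbx2 persisted lower and Col26a1 started late; colours, line types and axis as in the plot of genes that rose. Col26a1 stands at 68.4 and 136 at day 10, against 14.4 in both lines at day 3.

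The change from day 3 to day 10 differed between the arms in 2017 genes (9.71%), 754 with a higher change in FBS (3.63%) and 1263 with a lower one (6.08%). That split was 1052 and 974 with quantile normalization, 953 and 458 in the authors' table and 1342 and 7262 with normexp background correction, so the share of each direction depends on the scaling. This is the interaction of arm (FBS minus serum-free) and day, tested in the same limma model. The FBS arrays lay on slides 1 and 2 and the serum-free arrays on slides 2 and 3. In the Dazl-GFP line the serum-free day 10 array lay on slide 3 and the day 3 array on slide 2. With the slide as a further block 0 genes passed (6911 at an unadjusted p of 0.05), and without the cell line as a block 3. No gene passed without either FBS day 3 array, the Dazl-GFP FBS day 10 array or the Dazl-GFP serum-free day 3 array. There were 187 without the Stella-GFP FBS day 10 array, 44 without either serum-free day 0 array, 4 without the Dazl-GFP serum-free day 10 array, 1 without the Stella-GFP serum-free day 3 array and 3103 without either FBS day 0 array. Of the genes that rose in FBS, 141 of 197 also passed the test of the difference, as did 66 of the 107 that fell. Over all genes the median change was -0.11 in FBS, against 0.19 in serum-free medium.

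Gdf15, Vegfa and Slc1a4 were among the genes that differed. Fgf21 was not well above background in serum-free cells at day 10 or day 3, so its change there was not measured. Gdf15 in serum-free medium had 83.5 in Stella-GFP and 85.5 in Dazl-GFP cells at day 10, against 122 and 148 at day 3 (difference of the log2 changes 2.88 ± 0.44, adjusted p = 0.0288). Vegfa there had 19.7 in Stella-GFP and 22.6 in Dazl-GFP cells at day 10, against 38.8 and 35.8 at day 3 (difference of the log2 changes 2.52 ± 0.38, adjusted p = 0.0286), and Slc1a4 30.0 in Stella-GFP and 34.2 in Dazl-GFP cells at day 10, against 34.1 and 46.0 at day 3 (difference of the log2 changes 1.75 ± 0.27, adjusted p = 0.0307). None of these 3 genes was higher at day 10 in either serum-free line. Of the stress response regulators 6 of 16 had a higher change in FBS and none a lower one, and of the amino acid transporters 4 had a higher change and 1 a lower one. Among fatty acid genes 4 of 12 had a higher change and none a lower one, and among sterol genes 4 of 23 had a higher and 1 a lower one. Over all genes 3.63% had a higher change in FBS and 6.08% a lower one.

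Stromal, blood and immediate early genes differed the other way. Of the macrophage markers 9 of 23 had a lower change in FBS, of the fibroblast genes 8 of 19, of the contractile genes 7 of 17 and of the immediate early genes 6 of 16. None of the macrophage, fibroblast or contractile genes had a higher change, and 1 immediate early gene did. Over all genes 6.08% had a lower and 3.63% a higher change, and the median difference between the arms was -0.28. The summed fibroblast signal in serum-free medium was 3884 in Stella-GFP and 3011 in Dazl-GFP cells at day 10, against 1526 and 1084 at day 3, and so moved opposite to that in FBS. Twist2 there had 6.38 in Stella-GFP and 3.79 in Dazl-GFP cells at day 10, against 3.29 and 1.78 at day 3 (difference of the log2 changes -3.07 ± 0.30, adjusted p = 0.0201), and Psmb8 12.6 in Stella-GFP and 5.65 in Dazl-GFP cells at day 10, against 5.19 and 3.70 at day 3 (difference of the log2 changes -3.16 ± 0.34, adjusted p = 0.0201).

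The 6 highest fitted differences came with lower day 10 values in serum-free medium. Hkdc1, a hexokinase relative, had signals in FBS of 5.28 in Stella-GFP and 4.38 in Dazl-GFP cells at day 10, against 3.13 and 6.30 at day 3, and in serum-free medium of 4.61 in Stella-GFP and 3.97 in Dazl-GFP cells at day 10, against 74.4 and 164 at day 3 (difference of the log2 changes 4.81 ± 0.65, adjusted p = 0.0264). Lama1, a laminin chain of basement membranes, had FBS signals of 22.0 in Stella-GFP and 44.3 in Dazl-GFP cells at day 10, against 22.0 and 36.8 at day 3, and serum-free signals of 9.28 in Stella-GFP and 10.4 in Dazl-GFP cells at day 10, against 89.1 and 241 at day 3 (difference of the log2 changes 4.03 ± 0.44, adjusted p = 0.0201). Stra8, which germ cells need for entry into meiosis, had FBS signals of 774 in Stella-GFP and 404 in Dazl-GFP cells at day 10, against 258 and 306 at day 3, and serum-free signals of 32.3 in Stella-GFP and 7.46 in Dazl-GFP cells at day 10, against 177 and 125 at day 3 (difference of the log2 changes 4.25 ± 0.76, adjusted p = 0.0329). These 3 did not pass between day 10 and day 3 in FBS. Camk2n1, an inhibitor of CaMKII, Med12l and Dleu7 also passed (adjusted p = 0.0264, 0.0476 and 0.0347), but were not well above background in serum-free cells at day 10. The size of their difference was therefore not measured. Of 20 primitive endoderm genes 7 had a higher change in FBS and 1 a lower one, where 3.63% and 6.08% of all genes did. The median change of the 20 genes was 0.028 in FBS, against -1.45 in serum-free medium.

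The 6 lowest fitted differences joined lower day 10 values in FBS to higher ones in serum-free medium. Sp5, a direct target of Wnt and beta-catenin, had signals in FBS of 93.7 in Stella-GFP and 36.7 in Dazl-GFP cells at day 10, against 273 and 100 at day 3, and in serum-free medium of 275 in Stella-GFP and 357 in Dazl-GFP cells at day 10, against 21.6 and 5.69 at day 3 (difference of the log2 changes -6.32 ± 0.68, adjusted p = 0.0201). Il1rl1 had signals in serum-free medium of 5.42 in Stella-GFP and 1.79 in Dazl-GFP cells at day 10, against 0.891 and 0.634 at day 3 (adjusted p = 0.0201), with 1 of those 4 arrays, Stella-GFP at day 10, well above background, so the size of the difference was not measured. Cdx2, a trophoblast and hindgut factor, had FBS signals of 2.62 in Stella-GFP and 0.271 in Dazl-GFP cells at day 10, against 4.25 and 3.67 at day 3, and serum-free signals of 2.69 in Stella-GFP and 2.08 in Dazl-GFP cells at day 10, against 0.333 and 0.288 at day 3 (adjusted p = 0.0476). Neither serum-free day 3 array was well above background, so no size is given. Agtr2, an angiotensin receptor, was not well above background on the FBS arrays of day 10, where its signal was at least 3.92-fold lower than at day 3 (adjusted p = 0.0514, which does not pass). Lyz1, a macrophage lysozyme, had a difference of -4.75, with 1 of the 2 serum-free day 3 arrays well above background. Nt5e, the surface enzyme CD73, passed too (adjusted p = 0.0412) and was on neither FBS day 10 array well above background. Of the 6, Il1rl1 was the only gene whose FBS change alone passed.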

How the data were processed

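The deposited scanner files give the Cy3 intensity of each spot on 12 arrays; per the file headers they were made with Agilent Feature Extraction 9.1.3.1, which subtracted the background and removed spatial trends. The deposited table of the whole series holds signal that matched the background-subtracted intensity divided by each array's median, as found from the values (floor 0.1 here); it served as an alternative only. The files' marks for spots (other columns, per the file headers) were used to leave out control and irregular spots and to tell which spots were well above background.

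Each log2 processed intensity was set against its array's 75th percentile, and each gene was represented by the probe with the highest mean. Testing was limited to 20777 of 26897 genes, those whose probe exceeded background clearly on 2 or more arrays, with 15 having a value left out. Probe names came from RefSeq accessions for 22951 probes, from the deposited table for 7527 and from the scanner files for 10696. limma 3.58.1 in R 4.3.3 fitted 6 groups of arm and day with the cell line as a block (5 residual degrees of freedom) and adjusted p-values by Benjamini-Hochberg. The code was also run on simulated arrays with independent noise and no line, slide or brightness effect. That run cannot show how such effects bear on the calls. Errors are standard errors of that fit, each group having 2 arrays, whose number limits the precision. Pairing came from the labels, since both arrays of a pair are of one cell line; deviations of same-line arrays correlated at -0.048 to 0.573 over 15 pairs of groups, 13 of them above 0.1.

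Genes were named if they were among the 15 highest or lowest changes past the threshold, the 6 largest of each class and direction, the 6 highest or lowest arm differences, members of 41 gene lists, or 7 genes always given; clone, accession and predicted names were left out. The members, lists and rules were chosen with earlier results of these data known. Promoter windows are RefSeq's. Figures were drawn with matplotlib 3.10.9. The genome build behind the probes is not given in the sources used here.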

Additional observations from a re-analysis of the deposited data

Results flagged for a closer look

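The change between day 10 and day 3 differed between the FBS and the serum-free arm by the interaction test in 2017 genes. In the following the changes of the lines had opposite signs, and the difference between the lines was not tested. Median log2 changes in Stella-GFP and Dazl-GFP cells were 0.33 and -0.24 for primed pluripotency genes, -0.17 and 0.082 for endothelium, 0.35 and -0.10 for glycolysis, 0.17 and -0.19 for hypoxia, 0.013 and -0.097 for germ cell and piRNA genes, and -0.062 and 0.090 for primitive endoderm. Of single genes, the log2 change of Pou5f1 was 0.51 in Stella-GFP and -0.10 in Dazl-GFP cells, and that of Tet3 was -0.53 in Stella-GFP and 0.82 in Dazl-GFP cells.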

How the results depend on the processing

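The count of genes past the threshold between day 10 and day 3 (304) moved to 479 with quantile normalization (292 shared), 4355 with normexp background correction (226 shared), 23 with no filter on dim genes (21 shared), 979 with genes above background on all 12 arrays (231 shared), 1188 with a variance trend (286 shared), 157 with the slide as a block (104 shared), 6 with no replicate block, 0 on the compared arrays alone (7374 unadjusted) and 0 on the FBS arrays only (4507 unadjusted), the last chosen after seeing the data. It was 303 in the authors' table (217 shared) and 244 with all probes separate. The count for the difference between arms (2017) became 8604 with normexp, 495 with no filter, 3464 on all 12 arrays above background, 3273 with a trend, 1012 on the compared arrays, 3 with no replicate block and 0 with the slide. Returned, persisting and late genes (106, 1083 and 113) numbered 160, 1120 and 160 with quantile normalization, 2528, 1790 and 665 with normexp, 5, 829 and 13 with no filter, 319, 1238 and 311 with all 12 above background, 372, 1406 and 356 with a trend, 36, 392 and 34 with the slide, and 2, 679 and 3 with no replicate block. Leaving out single arrays gave 0 to 925 for day 10 against day 3, 0 to 3103 for the arm difference, 0 to 211 returned, 221 to 951 persisting and 0 to 274 late genes. A group left with 1 array was assumed to vary like the others.

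Of 845 values of the 41 named genes that passed, 294 kept direction and call, 547 kept direction but did not pass, and 4 reversed, all with normexp. Under normexp the day 10 minus day 3 change was -0.026 for Hpvc2, -0.22 for Pde5a, -0.19 for Piwil1 and -0.27 for Slc9a7, and the day 3 minus day 0 change was 0.24 for Pde5a, 0.30 for Piwil1, 0.33 for Slc9a7 and 0.21 for Terb2. The cause of these shifts was not tested. Signal over background limits genes that no array of a group measured well above background, for which bounds or no size are given.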
